A study of Mus musculus with 6 samples.

Results

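The genes of the TGF-beta and bone morphogenetic protein (BMP) pathway were examined in whole mouse lung. The group holds 47 genes chosen by name, from the ligands to their receptors, binding proteins, Smad proteins and target genes, out of 49568 gene symbols in the table. Lungs of 3 TNF-Tg mice and 3 WT mice, all 4 months old, were profiled by bulk RNA-sequencing of poly(A) RNA. TNF-Tg mice carry a human TNF transgene and develop inflammatory-erosive arthritis together with lung disease. The WT mice were their littermates without the transgene, and both genotypes were female and on the C57BL/6 background. Each library came from 1 mouse, and the cells that express the transgene are not given in the sources used here. The question addressed was which genes of the pathway differ in RNA level between lungs with and without excess TNF.

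TGF-beta and BMP ligands are secreted dimers that bind pairs of type I and type II receptor kinases on the cell surface. TGF-beta itself is held in the matrix in a latent form, bound to latent TGF-beta binding proteins, and must be released before it signals. The receptors phosphorylate Smad proteins, which enter the nucleus with Smad4, while inhibitory Smads and ubiquitin ligases shut the signal off. In the lung the TGF-beta branch is best known for its part in fibrosis and elastic fibre assembly, and the BMP branch for its part in the pulmonary vessels and in branching.

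The libraries held between 25396923 and 32529408 counts per lung, and each TNF-Tg library was smaller than each WT library. The markers of lung epithelium, endothelium, fibroblasts, smooth muscle, pericytes and mesothelium were detected in every lung, and the summed level of 5 alveolar type 2 cell genes lay between 14736 and 25776 CPM (counts scaled to a fixed library size). One TNF-Tg library and one WT library stood apart. In TNF-Tg 1, the transcript Gm42418 took 5.22% of all counts, against 0.0774% to 0.274% in the other lungs. In WT 1, the 5 squamous epithelium genes summed to 3417 CPM and the 5 skeletal muscle genes to 1415 CPM. The other WT lungs and the TNF-Tg lungs had no more than 2.73 and 33.0 CPM for the same lists. Counts of results are therefore also given without these libraries.

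Of the 47 genes, 46 passed the filter on low counts of edgeR, and 32 of these (69.6%) differed between TNF-Tg and WT lungs. The threshold was an adjusted p of 0.05 in the quasi-likelihood test of edgeR, adjusted by Benjamini-Hochberg over the 19199 genes tested. Of all genes tested, 47.4% passed it. Levels were higher in TNF-Tg lungs for 13 pathway genes and lower for 19, beside 24.0% and 23.4% of all genes tested. The median log2 fold change (TNF-Tg over WT) of the 46 genes was -0.30, against 0.03 over all genes tested. The groups did not overlap for 32 of the 46 genes, beside 58.7% of all genes. An absolute log2 fold change of at least 1 was reached by 14 genes, 7 in each direction, where 22.5% of all genes tested reached it (10.3% higher and 12.2% lower). The genes with higher levels were Gdf15, Ltbp2, Fst, Tgfbi, Bmp2, Id2 and Fstl1. Those with lower levels were Gdf10, Smad6, Smurf2, Bmpr1b, Bmp4, Acvr2b and Ltbp4. Without TNF-Tg 1 the number of pathway genes called was 29, without WT 1 it was also 29, and without both it was 26 (9 higher and 17 lower). The shares called among all genes tested in these fits were 37.3%, 37.8% and 31.2%.

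**Figure D1:**
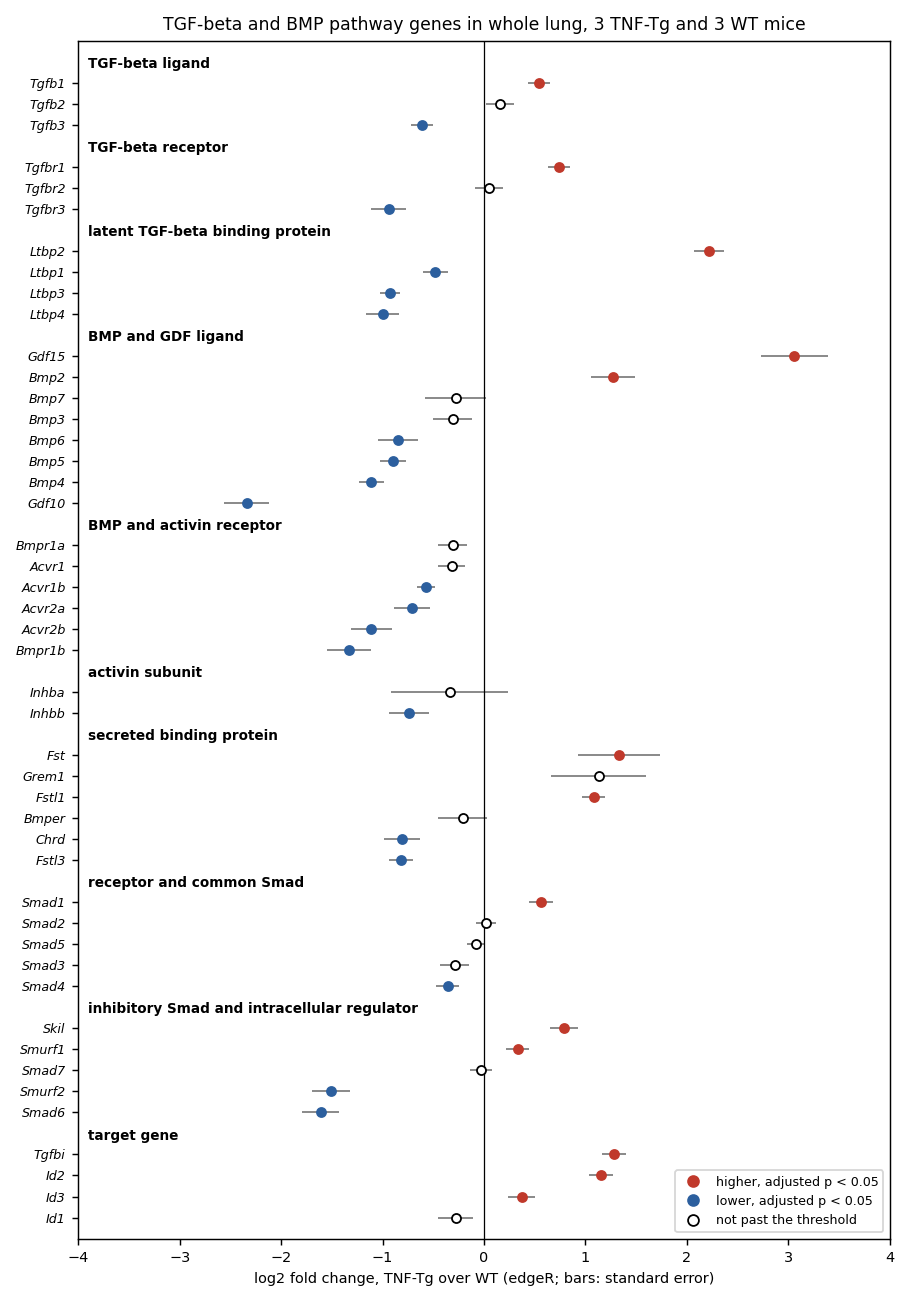
Log2 fold change of each tested pathway gene between 3 TNF-Tg and 3 WT lungs, grouped by role, with the standard error as a bar and the colour giving the call at an adjusted p of 0.05. The largest positive value belongs to Gdf15 (3.06) and the largest negative value to Gdf10 (-2.34), and no BMP or activin receptor lies among the genes called higher.

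Whole lung RNA mixes many cell types, so fewer cells of a type and less RNA per cell cannot be told apart. Markers of fibroblasts, endothelium, smooth muscle and alveolar type 1 cells were mostly lower in TNF-Tg lungs. Other structural lists, some with a smaller share of lower markers, are given at the end. For fibroblasts, 7 of 9 markers were lower and none higher, and the summed level was 1078 to 1134 CPM in TNF-Tg and 1968 to 3110 in WT lungs. For endothelium, 8 of 9 markers were lower, with sums of 1482 to 1712 and 3019 to 3554 CPM. Smooth muscle had 5 of 6 markers lower, with sums of 555 to 584 and 1002 to 1221 CPM. Alveolar type 1 cells had 5 of 5 markers lower, with sums of 995 to 1238 and 2823 to 3039 CPM. Macrophage markers went the other way. All 6 were higher, with sums of 3517 to 5468 CPM in TNF-Tg and 332 to 362 in WT lungs. The 5 general leukocyte markers were also higher, with sums of 2143 to 2504 and 758 to 974 CPM. None of the genes of these lists was at 0 in any lung. Their part in the differences of the pathway genes was not tested.

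**Figure D2:**
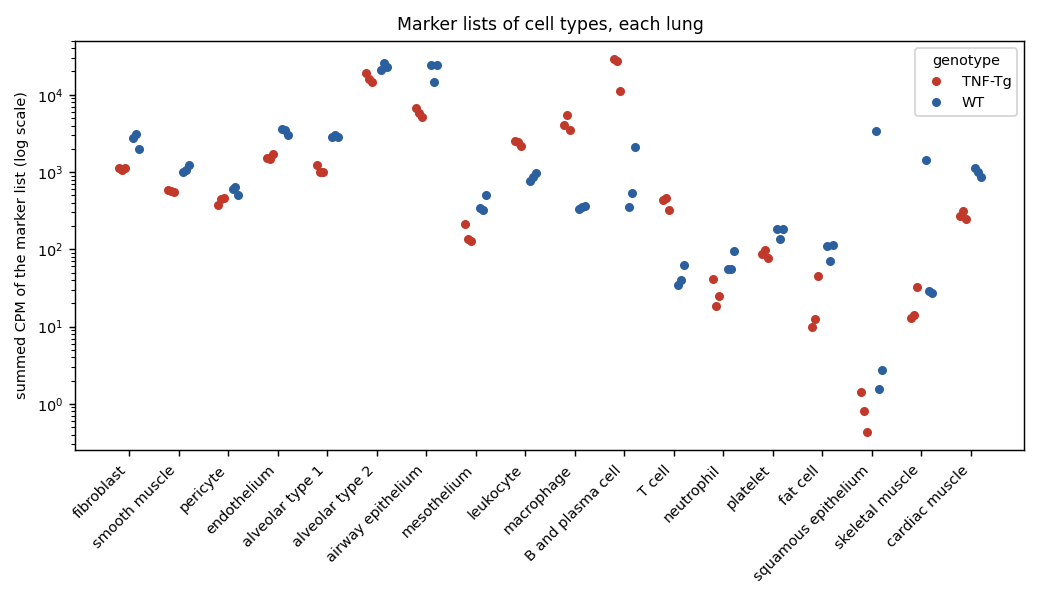
Summed CPM of 18 cell type marker lists in each lung on a log axis, with TNF-Tg lungs in red and WT lungs in blue. Fibroblast, endothelial and alveolar type 1 sums of the TNF-Tg lungs lie below all WT lungs and macrophage sums above them, and WT 1 stands alone at 3417 CPM for squamous epithelium.

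The largest log2 fold changes among the genes called belonged to Gdf15 and Ltbp2 on the higher side and to Gdf10 and Smad6 on the lower side, and their promoters are shown for that reason. Each sequence is the 250 bases before the RefSeq transcript start on GRCm38.p6, 5′ to 3′ on the strand of the gene. Capitals mark the Smad binding element CAGAC, also in its reverse form GTCTG.
Gdf15: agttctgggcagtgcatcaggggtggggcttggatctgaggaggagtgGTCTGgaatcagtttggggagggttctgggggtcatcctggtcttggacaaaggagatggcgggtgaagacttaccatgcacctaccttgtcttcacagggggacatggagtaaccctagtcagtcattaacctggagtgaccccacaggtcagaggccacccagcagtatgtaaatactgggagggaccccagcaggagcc
Ltbp2: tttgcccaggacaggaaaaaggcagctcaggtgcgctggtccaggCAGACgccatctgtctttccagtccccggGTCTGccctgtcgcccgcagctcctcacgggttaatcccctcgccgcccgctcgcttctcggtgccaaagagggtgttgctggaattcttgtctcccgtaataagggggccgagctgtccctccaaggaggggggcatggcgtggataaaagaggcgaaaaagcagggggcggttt
Gdf10: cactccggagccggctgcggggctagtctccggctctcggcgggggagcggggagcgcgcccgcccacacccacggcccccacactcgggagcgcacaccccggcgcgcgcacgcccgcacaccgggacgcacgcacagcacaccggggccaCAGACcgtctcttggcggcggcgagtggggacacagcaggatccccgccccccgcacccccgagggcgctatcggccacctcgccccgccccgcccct
Smad6: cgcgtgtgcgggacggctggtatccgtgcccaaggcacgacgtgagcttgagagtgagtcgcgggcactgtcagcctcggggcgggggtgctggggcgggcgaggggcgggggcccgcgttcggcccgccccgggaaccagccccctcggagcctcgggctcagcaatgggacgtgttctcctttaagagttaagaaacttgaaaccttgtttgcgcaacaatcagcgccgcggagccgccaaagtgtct
The Gdf15 window lies at chr8:70632457-70632706 on the minus strand and holds 1 match. The Ltbp2 window at chr12:84876492-84876741, also on the minus strand, holds 2 matches. The Gdf10 window at chr14:33923337-33923586 on the plus strand holds 1 match, and the Smad6 window at chr9:64022060-64022309 on the minus strand holds none. The GC content of the 4 windows was 56.4%, 61.6%, 78.8% and 66.8% in that order, where the median of all windows was 52.4%.

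Among the 47 genes, 35 had a promoter entry. The element CAGAC was found on either strand in 5 of 10 promoters of genes with higher levels, in 10 of 16 of genes with lower levels and in 3 of 9 of genes that were not called. Of all 32536 promoter windows of the same length, 42.2% held it. The GC-rich Smad site GGCGCC was found in 3, 2 and 2 promoters of these groups and in 9.65% of all windows. The AP-1 motif TGANTCA was found in none of the 35 promoters and in 6.73% of all windows. The NF-kB consensus was found in 1 promoter of each group, those of Tgfb1, Acvr1b and Bmper, and in 7.28% of all windows. A match describes the letters in the window and not a bound site.

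The 3 TGF-beta ligands differed in direction. Normalized counts, which are counts scaled to a common library size, are given for lungs 1, 2 and 3 of each genotype in this order. Tgfb1, the ligand most abundant in leukocytes and platelets, had 6312, 5969 and 5068 normalized counts in TNF-Tg lungs and 3880, 3838 and 4190 in WT lungs. Every TNF-Tg lung was above every WT lung. The level was 1.45-fold higher (log2 fold change 0.54, standard error 0.11, edgeR adjusted p = 0.00504). Without TNF-Tg 1 and WT 1 together the adjusted p was 0.0805. Tgfb3, a ligand needed for lung and palate development, had 1084, 921 and 888 normalized counts in TNF-Tg lungs and 1461, 1560 and 1391 in WT lungs. All TNF-Tg lungs were below all WT lungs, the opposite order from Tgfb1, and the log2 fold change was -0.61 (standard error 0.11, edgeR adjusted p = 0.00218). Tgfb2, the remaining isoform, had 922, 682 and 951 normalized counts against 719, 731 and 834. Its groups overlapped, and its log2 fold change of 0.16 did not pass the threshold (standard error 0.14, edgeR adjusted p = 0.397). Macrophage and leukocyte marker sums were higher together with Tgfb1, platelet marker sums were lower (76.8 to 96.6 CPM in TNF-Tg and 134 to 182 in WT lungs, 1 of 5 markers higher and 4 lower), and fibroblast sums were lower together with Tgfb3. Of the exonic bases of Tgfb3, 12.4% lie opposite other genes, of which Gm37804 had at most 1.78 normalized counts in any lung.

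The receptors of TGF-beta also differed among themselves. Tgfbr1, the type I receptor kinase, had 1762, 1656 and 1515 normalized counts in TNF-Tg lungs and 1068, 1007 and 865 in WT lungs. No WT lung reached the TNF-Tg lungs, and the level was 1.67-fold higher in TNF-Tg (log2 fold change 0.74, standard error 0.11, edgeR adjusted p = 0.00103). Tgfbr2, the type II receptor that binds the ligand first, had 9836, 9811 and 9221 normalized counts against 9220, 10963 and 7710. The 3 WT lungs spanned the TNF-Tg lungs, and the log2 fold change was 0.05 (standard error 0.14, edgeR adjusted p = 0.802). Tgfbr3 encodes betaglycan, a co-receptor without kinase activity that presents TGF-beta2. It had 1484, 1613 and 1501 normalized counts in TNF-Tg lungs and 3738, 2720 and 2340 in WT lungs, so every TNF-Tg lung was lower (log2 fold change -0.94, standard error 0.17, edgeR adjusted p = 0.00233).

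The 4 latent TGF-beta binding proteins are large matrix proteins related to fibrillin. All of them differed between genotypes, 1 higher and 3 lower, beside 47.4% of all genes tested. Ltbp2, which binds fibrillin and, unlike the others, does not hold latent TGF-beta (chromosome 12 of GRCm38, 84783212 to 84876532), had 24308, 31118 and 26415 normalized counts in TNF-Tg lungs. The WT lungs had 6558, 5879 and 5088. The lowest TNF-Tg lung was far above the highest WT lung, and the level was 4.66-fold higher (log2 fold change 2.22, standard error 0.15, edgeR adjusted p = 2.34e-05). Ltbp4 (chromosome 7, 27305136 to 27337692), which supports elastic fibre assembly in the lung and stores TGF-beta1, had 17113, 18666 and 18467 normalized counts in TNF-Tg and 43924, 34063 and 30601 in WT lungs. All TNF-Tg lungs were lower, and the WT level was 2.01-fold that of TNF-Tg (standard error of the log2 fold change 0.16, edgeR adjusted p = 0.00143). Ltbp3 was also lower, with 4814 ± 180 normalized counts in TNF-Tg and 9129 ± 483 in WT lungs (SD, n = 3 each, log2 fold change -0.93, edgeR adjusted p = 0.000188). Ltbp1, the best studied carrier of latent TGF-beta1, had a smaller difference, 1991 ± 150 against 2773 ± 338 normalized counts (SD, n = 3 each, log2 fold change -0.48, edgeR adjusted p = 0.00989). For Ltbp1 the adjusted p was 0.0725 without TNF-Tg 1 and WT 1 together. Of the exonic bases of Ltbp2, 9.34% lie opposite the gene D030025P21Rik, which had 64.3 to 79.1 normalized counts in TNF-Tg and 30.4 to 51.6 in WT lungs. Fibroblast and smooth muscle marker sums were lower in the lungs where Ltbp1, Ltbp3 and Ltbp4 were lower, and Ltbp2 went against them. Of the markers in these sums, Col1a1, Acta2 and Tagln are also pathway target genes, so the sums are not separate from the pathway.

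**Figure D3:**
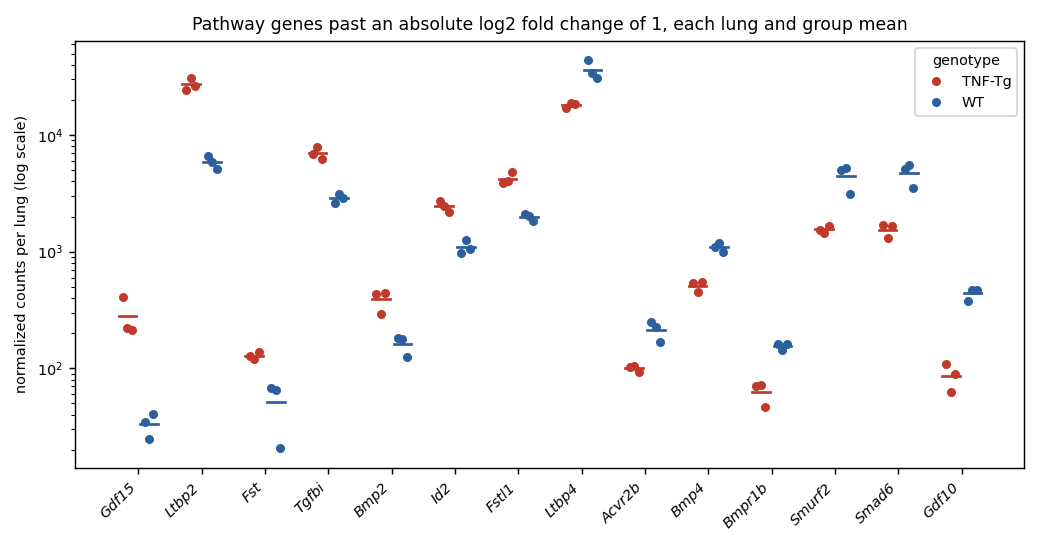
Normalized counts, on a log axis, of the 14 pathway genes called at an absolute log2 fold change of at least 1, with a point for each of the 3 TNF-Tg (red) and 3 WT (blue) lungs and a line at the group mean. The TNF-Tg lungs of Ltbp2 lie at 24308 or above while no WT lung exceeds 6558, and for Gdf10 the order is the reverse, with at most 108 in TNF-Tg and at least 377 in WT lungs.

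The 8 BMP and growth differentiation factor (GDF) ligands included 2 higher and 4 lower genes (75.0% called, beside 47.4% of all genes tested). Gdf15, a stress-induced ligand that acts through a receptor outside the classical pathway (chromosome 8, 70629393 to 70632456), had 409, 223 and 214 normalized counts in TNF-Tg lungs and 34.3, 24.9 and 40.9 in WT lungs. All TNF-Tg lungs were above the WT lungs, TNF-Tg 1 was the highest, and the level was 8.36-fold higher (log2 fold change 3.06, standard error 0.33, edgeR adjusted p = 0.000186). Gdf10, a ligand related to Bmp3 (chromosome 14, 33923587 to 33937983), had 108, 63.1 and 88.8 normalized counts in TNF-Tg and 377, 471 and 466 in WT lungs. Every TNF-Tg lung was lower, and the WT level was 5.07-fold that of TNF-Tg (log2 fold change -2.34, standard error 0.22, edgeR adjusted p = 8.88e-05). These were the largest differences in each direction among the 46 genes tested of the 47.

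Bmp2 and Bmp4, close relatives that share receptors, differed in opposite directions. Bmp2 (chromosome 2, 133552159 to 133562885) had 437, 293 and 438 normalized counts in TNF-Tg lungs and 182, 177 and 125 in WT lungs. Each lung of the TNF-Tg group was higher (2.41-fold, log2 fold change 1.27, standard error 0.22, edgeR adjusted p = 0.00205). Bmp4 (chromosome 14, 46383520 to 46390669), a ligand of lung branching and of the vessel wall, had 534, 454 and 545 normalized counts against 1101, 1193 and 1003 in WT lungs. No TNF-Tg lung reached the WT range (log2 fold change -1.11, standard error 0.12, edgeR adjusted p = 0.000189). The ratio of Bmp4 to Bmp2 per kilobase of exon was 1.93 to 2.45 in TNF-Tg lungs and 9.58 to 12.7 in WT lungs, a pair set side by side after its values were seen.

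Among the remaining ligands, Bmp5 and Bmp6 were lower in TNF-Tg lungs. Bmp5 had 555 ± 80.2 normalized counts against 1032 ± 46.0 in WT lungs (SD, n = 3 each, log2 fold change -0.90, edgeR adjusted p = 0.000780). Bmp6, known as the signal by which endothelium of the liver reports iron stores, had 1939, 1228 and 2216 normalized counts in TNF-Tg and 3031, 3467 and 3159 in WT lungs (log2 fold change -0.85, edgeR adjusted p = 0.00879). The groups of Bmp6 did not overlap, though TNF-Tg 2 lay well below the other TNF-Tg lungs. Bmp3, which opposes other BMPs, and Bmp7 did not pass the threshold, with log2 fold changes of -0.31 (standard error 0.19) and -0.28 (standard error 0.30). Of the exonic bases, 46.7% of Bmp5 and 5.74% of Bmp6 lie opposite another gene. For Bmp5 this is Gm26903, which had at most 2.88 normalized counts in any lung, and for Bmp6 it is Txndc5, which had 7361 to 11052 normalized counts in TNF-Tg and 4409 to 5453 in WT lungs.

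Of the 6 receptors of BMPs and activins, 4 (66.7%) were lower in TNF-Tg lungs, beside 23.4% of all genes tested. None was higher, and the median was -0.64 on the log2 scale. Bmpr1b, a type I BMP receptor (chromosome 3, 141837136 to 142169425), had 69.9, 71.4 and 46.3 normalized counts in TNF-Tg and 162, 144 and 163 in WT lungs. Each TNF-Tg lung was below each WT lung, and the WT level was 2.51-fold that of TNF-Tg (log2 fold change -1.33, standard error 0.22, edgeR adjusted p = 0.00173). Acvr2b, an activin type II receptor (chromosome 9, 119402118 to 119434995), had 102, 104 and 92.6 normalized counts against 249, 225 and 169. All TNF-Tg lungs were lower (log2 fold change -1.11, standard error 0.20, edgeR adjusted p = 0.00219). The activin type I receptor Acvr1b was lower by a smaller margin, with 1542 ± 68.3 against 2281 ± 171 normalized counts (SD, n = 3 each, log2 fold change -0.57, edgeR adjusted p = 0.00156). The other activin type II receptor, Acvr2a, had 389, 340 and 369 normalized counts in TNF-Tg and 757, 549 and 483 in WT lungs (log2 fold change -0.71, edgeR adjusted p = 0.0123). Its groups did not overlap, but without TNF-Tg 2 the adjusted p was 0.0508. Of its exonic bases, 7.84% lie opposite Orc4, which had 312 to 406 normalized counts in TNF-Tg and 303 to 420 in WT lungs.

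Acvr1 and Bmpr1a, both type I receptors for BMPs, did not pass the threshold with all lungs. Acvr1 had 559, 571 and 593 normalized counts in TNF-Tg and 714, 824 and 619 in WT lungs, without overlap (log2 fold change -0.32, edgeR adjusted p = 0.0670). Without WT 3 its adjusted p was 0.0196. For Bmpr1a the log2 fold change was -0.31 (edgeR adjusted p = 0.106), and the adjusted p was 0.0430 without TNF-Tg 1 and 0.0497 without WT 3. Endothelial and fibroblast marker sums were lower in the same TNF-Tg lungs.

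The activin subunits and secreted binding proteins showed a mixed pattern. Inhbb, which forms activin B, had 442, 385 and 275 normalized counts in TNF-Tg and 603, 515 and 716 in WT lungs (log2 fold change -0.74, standard error 0.20, edgeR adjusted p = 0.0159), without overlap. Inhba, which forms activin A, was near the limit of detection, with 7.56 to 21.1 normalized counts in TNF-Tg and 7.68 to 31.1 in WT lungs. Its log2 fold change of -0.34 did not pass the threshold (standard error 0.58, edgeR adjusted p = 0.652), and its counts varied widely within each genotype.

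The binding proteins that trap activins differed in direction. Fst, follistatin (chromosome 13, 114452290 to 114458951), had 128, 119 and 138 normalized counts in TNF-Tg and 67.6, 65.2 and 20.5 in WT lungs. The genotypes were separate and WT 3 was the lowest (log2 fold change 1.33, standard error 0.40, edgeR adjusted p = 0.0245). The adjusted p was 0.0620 without TNF-Tg 1, 0.0524 without TNF-Tg 2 and 0.0638 without TNF-Tg 3. Fstl3, a secreted relative of follistatin, was lower, with 458 ± 28.3 against 809 ± 90.7 normalized counts (SD, n = 3 each, log2 fold change -0.82, edgeR adjusted p = 0.00104). Of the exonic bases of Fstl3, 47.3% lie opposite Prss57, which had at most 13.2 normalized counts in any lung. Fstl1, a more distant relative secreted by mesenchymal cells (chromosome 16, 37776873 to 37836514), had 3855, 4036 and 4810 normalized counts in TNF-Tg and 2096, 2039 and 1846 in WT lungs. The genotypes were separate (2.12-fold higher, log2 fold change 1.08, standard error 0.11, edgeR adjusted p = 0.000181), while the fibroblast marker sums were lower.

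Of the antagonists of BMPs, Chrd, Grem1 and Nog had low counts. Chrd, chordin, had 73.9, 84.9 and 82.2 normalized counts in TNF-Tg lungs and 126, 138 and 158 in WT lungs, so every TNF-Tg lung was lower (log2 fold change -0.81, standard error 0.18, edgeR adjusted p = 0.00783). Grem1, gremlin, had 33.0, 24.8 and 11.3 normalized counts against 11.4, 12.5 and 7.12. TNF-Tg 3 lay among the WT lungs (log2 fold change 1.13, standard error 0.47, edgeR adjusted p = 0.0785), and without it the adjusted p was 0.0252. Bmper, which binds BMPs near endothelium, had a log2 fold change of -0.21 (edgeR adjusted p = 0.497). Nog, noggin, did not pass the filter on low counts. It had 2, 3 and 3 counts in the TNF-Tg lungs and 9, 13 and 8 in the WT lungs, and since 3 counts were taken as the limit of detection no fold is given.

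Of the 5 receptor-regulated and common Smads, 1 was higher and 1 lower. Smad1, which carries the BMP signal, had 716, 585 and 671 normalized counts in TNF-Tg and 464, 413 and 454 in WT lungs. The groups did not overlap (1.48-fold higher, log2 fold change 0.56, standard error 0.12, edgeR adjusted p = 0.00603), and the adjusted p was 0.0612 without TNF-Tg 1 and WT 1 together. Smad5, its partner in the BMP branch, did not pass the threshold (log2 fold change -0.08, standard error 0.09, edgeR adjusted p = 0.468). Smad2 and Smad3 carry the TGF-beta and activin signal. Their log2 fold changes were 0.02 (standard error 0.10) and -0.29 (standard error 0.14), and neither passed the threshold with all lungs. For Smad3 the adjusted p was 0.0143 without WT 3. Smad4, shared by both branches, had 1378, 1450 and 1468 normalized counts in TNF-Tg and 1932, 2001 and 1562 in WT lungs, without overlap (log2 fold change -0.36, edgeR adjusted p = 0.0287). Its adjusted p was 0.0699 without TNF-Tg 1, 0.0685 without TNF-Tg 2, 0.0712 without WT 1 and 0.102 without WT 2.

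The inhibitors of the signal inside the cell were split. Smad6, which blocks BMP receptors and is known for its expression in endothelium (chromosome 9, 63953076 to 64022059), had 1684, 1305 and 1648 normalized counts in TNF-Tg lungs and 5116, 5499 and 3524 in WT lungs. Every TNF-Tg lung was lower, and the WT level was 3.05-fold that of TNF-Tg (log2 fold change -1.61, standard error 0.18, edgeR adjusted p = 0.000259). Smad7, which blocks both branches, had 1097, 956 and 1253 normalized counts against 1137, 1088 and 1157. Its groups overlapped, and the log2 fold change was -0.03 (standard error 0.11, edgeR adjusted p = 0.824). Endothelial marker sums were lower in the TNF-Tg lungs together with Smad6.

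The ubiquitin ligases Smurf1 and Smurf2, which mark receptors and Smads for degradation, differed in opposite directions. Smurf2 (chromosome 11, 106820066 to 106920715) had 1544, 1459 and 1676 normalized counts in TNF-Tg and 4970, 5177 and 3121 in WT lungs, with no overlap and with WT 3 nearest to TNF-Tg (log2 fold change -1.51, standard error 0.19, edgeR adjusted p = 0.000416). Smurf1 had 2403, 2873 and 2490 against 2150, 2214 and 1823 normalized counts (log2 fold change 0.33, standard error 0.11, edgeR adjusted p = 0.0446). The groups of Smurf1 did not overlap, but its adjusted p was between 0.0632 and 0.138 without any 1 of the 6 lungs. Skil, which encodes SnoN, a repressor of Smad target genes, was higher in TNF-Tg lungs, with 1690 ± 203 against 974 ± 146 normalized counts (SD, n = 3 each, log2 fold change 0.79, edgeR adjusted p = 0.00219).

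Of the 4 target genes, 3 (75.0%) were higher in TNF-Tg lungs, beside 24.0% of all genes tested. None was lower, and the median was 0.76 on the log2 scale. Tgfbi, a matrix protein induced by TGF-beta and also made by macrophages (chromosome 13, 56609523 to 56639562), had 6932, 7950 and 6231 normalized counts in TNF-Tg and 2629, 3148 and 2882 in WT lungs. The groups did not overlap (2.43-fold higher, log2 fold change 1.28, standard error 0.12, edgeR adjusted p = 0.000116). Id1, Id2 and Id3 encode inhibitors of basic helix-loop-helix transcription factors and are targets of the BMP branch. Id2 (chromosome 12, 25093799 to 25097140), also expressed in many leukocytes, had 2711, 2454 and 2199 normalized counts against 981, 1263 and 1062. All TNF-Tg lungs were higher (2.22-fold, log2 fold change 1.15, standard error 0.12, edgeR adjusted p = 0.000193). Id3 had 3137, 2594 and 3507 normalized counts in TNF-Tg and 2132, 2406 and 2602 in WT lungs. TNF-Tg 2 lay just below WT 3 (log2 fold change 0.37, standard error 0.13, edgeR adjusted p = 0.0484), and the adjusted p was 0.150 without TNF-Tg 1, 0.180 without TNF-Tg 3, 0.184 without WT 1 and 0.113 without WT 2. Id1 had 1623, 1405 and 1612 against 1576, 1598 and 2446 normalized counts, with overlap and with WT 3 the highest (log2 fold change -0.28, standard error 0.17, edgeR adjusted p = 0.219). Macrophage and leukocyte marker sums were higher in the lungs where Tgfbi and Id2 were higher.

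Levels were compared between genes as RPKM, counts divided by the exon length in kilobases and by the library size. Among the 47 genes, the most abundant in WT lungs was Ltbp4, at 185 ± 35.3 RPKM (SD, n = 3), followed by Id1 at 53.3, Smad6 at 48.6 and Id3 at 43.9 RPKM. In TNF-Tg lungs Ltbp2 came first of the 47 at 110 ± 14.1 RPKM (SD, n = 3), followed by Ltbp4 at 92.4, Tgfbi at 61.6 and Id3 at 56.8 RPKM. By rank among the 47 genes, Ltbp2 stood at 11 in WT and 1 in TNF-Tg lungs, Gdf15 at 43 and 28, and Smad6 at 3 and 11. Nog, Inhba and Grem1 were the lowest in both genotypes. Of the 3 TGF-beta ligands, Tgfb1 had the highest level in both, 37.9 RPKM in TNF-Tg and 26.0 in WT lungs, ahead of Tgfb3 at 9.41 and 14.4 and Tgfb2 at 4.86 and 4.34 RPKM.

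Ratios between related genes, chosen after their values were seen and given without a test, put these levels side by side within each lung. The ratio of Tgfb1 to Tgfb3 per kilobase was 3.83 to 4.35 in TNF-Tg lungs and 1.65 to 2.02 in WT lungs. Ltbp2 to Ltbp4 was 1.12 to 1.32 in TNF-Tg and 0.118 to 0.136 in WT lungs, so Ltbp2 exceeded Ltbp4 in each TNF-Tg lung and in no WT lung. Smad6 to Smad7 was 1.86 to 2.17 against 4.30 to 7.13. Smurf2 to Smurf1 was 0.522 to 0.692 against 1.76 to 2.41, and Id2 to Id1 was 0.649 to 0.831 against 0.207 to 0.376. Of 8 such pairs computed, the ranges of the genotypes did not overlap in 7. They overlapped for Tgfb1 to Tgfb2, where the lowest TNF-Tg lung was at 6.12 and the WT lungs were at 5.77 to 6.20.

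**Figure D4:**
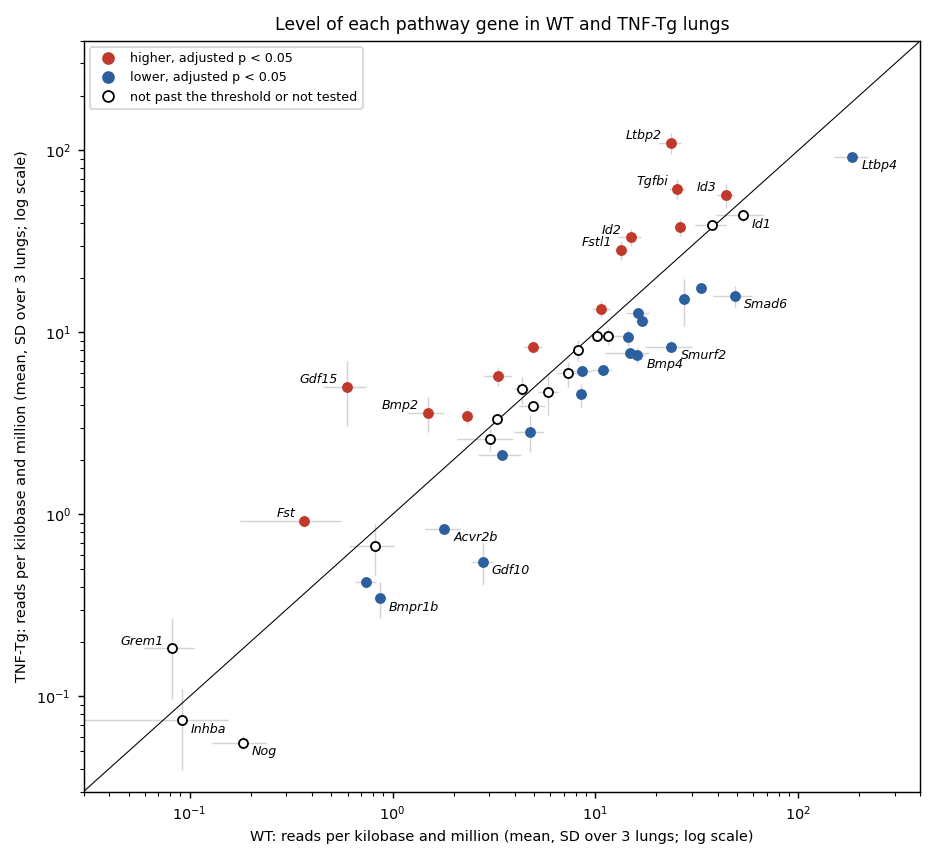
Mean RPKM of each pathway gene in 3 TNF-Tg lungs against 3 WT lungs on log axes, with the SD as bars, the diagonal marking equal levels, and names given for the genes with the largest differences or the highest and lowest levels. Ltbp2 lies at 110 RPKM in TNF-Tg lungs, above Ltbp4 at 92.4, whereas Ltbp4 stands highest in WT lungs at 185.

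A second list of the pathway was written from knowledge of its genes, and 91 of these were in the table. Of the 73 that passed the filter, 12 were higher and 28 lower in TNF-Tg lungs, at a median log2 difference of -0.36. The 40 called were 54.8%, beside 47.4% of all genes tested (24.0% higher and 23.4% lower). The 8 other receptors and co-receptors tested held 6 lower genes (75.0%) and none higher, at a median log2 difference of -1.01. Acvrl1, the endothelial type I receptor of BMP9 and BMP10, had 8497, 9763 and 8952 normalized counts in TNF-Tg and 32964, 35545 and 27903 in WT lungs (log2 fold change -1.83, standard error 0.14, edgeR adjusted p = 3.55e-05). Bmpr2, the type II receptor mutated in heritable pulmonary arterial hypertension, had 4236, 3280 and 3455 against 10280, 7982 and 6771 normalized counts (log2 fold change -1.19, standard error 0.18, edgeR adjusted p = 0.000943). Eng, endoglin, the endothelial co-receptor, had 19050, 16013 and 19155 against 35197, 37305 and 24815 normalized counts (log2 fold change -0.85, edgeR adjusted p = 0.00554). For these 3 genes no TNF-Tg lung reached the lowest WT lung. Rgma, a BMP co-receptor, was also lower (log2 fold change -1.45, edgeR adjusted p = 9.00e-05). Endothelial marker sums, given before, were lower in the same lungs.

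The other ligands held 1 higher and 1 lower gene of 8 tested (25.0% called, beside 47.4% of all genes tested). Gdf2, which encodes BMP9, had 21.1, 3.11 and 6.61 normalized counts in TNF-Tg and 34.3, 24.9 and 75.6 in WT lungs (log2 fold change -2.20, standard error 0.67, edgeR adjusted p = 0.0265). The counts were low, and the adjusted p was 0.0811 without TNF-Tg 2, 0.0901 without TNF-Tg 3 and 0.0855 without WT 3. With single lungs left out the log2 fold change ran from -3.20 to -1.60. Of the 10 genes for activation and storage of latent TGF-beta, 2 were higher and 2 lower. Nrros, which anchors latent TGF-beta1 on macrophages and microglia, had 3487, 2586 and 2808 normalized counts against 744, 851 and 1091 (log2 fold change 1.72, standard error 0.17, edgeR adjusted p = 0.000119). Each TNF-Tg lung was higher than each WT lung, and so were the macrophage marker sums. Itgb8, a subunit of an integrin that activates latent TGF-beta, was higher at a low level, 42.2, 39.3 and 45.4 against 20.9, 20.1 and 8.89 normalized counts (log2 fold change 1.34, edgeR adjusted p = 0.0151).

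Among 13 other secreted binding proteins, 8 were lower and 2 higher (76.9% called, beside 47.4% of all genes tested). Fstl4, a follistatin relative, had 0, 6.21 and 2.83 normalized counts in TNF-Tg and 31.4, 23.0 and 18.7 in WT lungs (log2 fold change -2.88, standard error 0.63, edgeR adjusted p = 0.00666). With 0, 6 and 3 raw counts in the TNF-Tg lungs the size of this fold is uncertain, and it ran from -3.81 to -2.23 over the alternatives. Htra3, a protease that binds TGF-beta family ligands, had 158, 242 and 115 against 1061, 1026 and 776 normalized counts (log2 fold change -2.47, edgeR adjusted p = 0.000200). The BMP antagonist Chrdl1 had 203, 128 and 143 against 413, 425 and 379 normalized counts (log2 fold change -1.37, edgeR adjusted p = 0.000736). For these 3 genes the groups did not overlap.

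Of the 17 other intracellular regulators, 4 were higher and 5 lower (52.9% called, near the 47.4% of all genes tested). Tgif1, a repressor of Smad target genes, had 1387, 967 and 1022 normalized counts in TNF-Tg and 419, 458 and 434 in WT lungs (log2 fold change 1.36, edgeR adjusted p = 0.000225). Smad9, a BMP-branch Smad, had 178, 126 and 180 against 418, 468 and 235 (log2 fold change -1.21, edgeR adjusted p = 0.00751). Of the 17 other target genes, 3 were higher and 6 lower (also 52.9% called). Col1a1, the main fibrillar collagen chain and also one of the fibroblast markers, had 6502, 5613 and 6566 against 15244, 19599 and 12265 (log2 fold change -1.34, edgeR adjusted p = 0.000577). In each of these genes the TNF-Tg and WT lungs were separate.

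**Figure D5:**
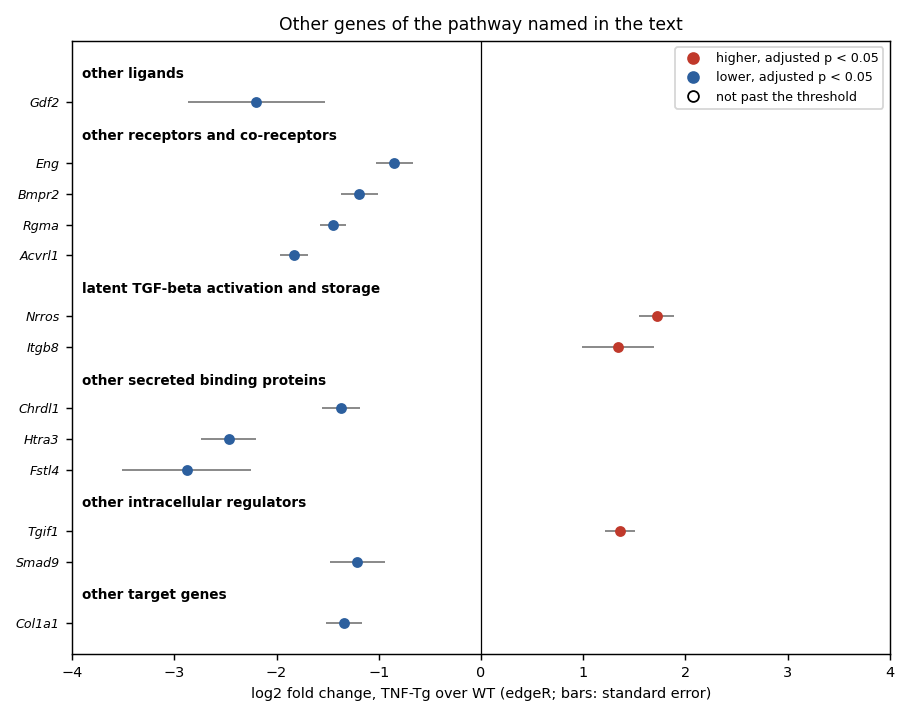
Log2 fold change between 3 TNF-Tg and 3 WT lungs for 13 other genes of the pathway, grouped by role, with the standard error as a bar. Nrros (1.72) and Tgif1 (1.36) lie farthest to the right, and the 4 receptors and co-receptors shown all lie left of 0.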

How the data were processed

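RNA of whole lungs was prepared as stranded poly(A) libraries and sequenced as single-end reads of 100 bases. Per the submitters' processing notes, the authors trimmed reads with Trimmomatic (version 0.36, where the methods name another version), mapped them to GRCm38.p5 with STAR (version 2.5.2b) and counted them with featureCounts, and they deposited raw counts per gene symbol without normalization. The strand setting and annotation of the counting are not given in the sources used here, so a gene and one on the opposite strand may share counts.

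The 6 count columns were matched to mice by genotype and number. The test was edgeR's quasi-likelihood test (edgeR version 4.0.16 under R version 4.3.3) on genes kept by filterByExpr, with TMM scaling and a genotype term alone. P-values were adjusted by Benjamini-Hochberg over all genes tested, and 0.05 was the threshold. The standard error is the log2 fold change divided by the square root of F. Normalized counts are TMM-scaled counts at the mean library size. RPKM used exon lengths of GENCODE M21 (GRCm38), and 44 of the 47 genes shared no window of 100 bases with another locus. The depth set the limit of detection, 3 counts, at 0.0922 to 0.118 CPM, for counting error only.

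The genes and lists were chosen with earlier results of these data known. All 47 genes are accounted for, with values per lung for those called at an absolute log2 fold change of at least 1 and for genes of set roles, and of 91 other pathway genes Bmpr2, Acvrl1, Eng, Smad9 and the 12 with the largest called differences were to be named, of which some are not reported here.

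Alternatives were DESeq2 (version 1.42.0), limma-voom (version 3.58.1), other scalings and filters, a robust dispersion, a block for the replicate number, leaving out lungs and a minimum fold change. The programs were tested on simulated data in which few genes changed, unlike the lungs, where 47.4% of all genes tested were called. Promoter sequences are from RefSeq on GRCm38.p6, and 12 of the 47 genes had no entry.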

Additional observations from a re-analysis of the deposited data

How the results depend on the processing

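Of the 32 pathway genes called, 24 kept call and direction under each of up to 16 alternatives, which leave aside the minimum fold change, 8 lost the call under at least 1 of them and none changed sign. The 8 were Smurf1, Id3, Smad4, Fst, Acvr2a, Tgfb1, Ltbp1 and Smad1. The number called was 30 with DESeq2, 31 with limma-voom, 29 with total counts only, 30 without the filter and 28 to 34 with each lung left out. The shares of all genes called in these fits were 26.3% with DESeq2 and 26.1% without the filter (over 34744 genes), 42.1% with total counts only and 37.3% to 46.6% with each lung left out, and limma-voom called 9032 of 19199 genes. Requiring an absolute log2 fold change of 1 left 14 pathway genes (7 higher, 7 lower), 19 of the second list (6 higher, 13 lower) and 4320 genes in all (1980 higher, 2340 lower), by construction fewer. Leaving out TNF-Tg 1 and WT 1 together, chosen after seeing the data, left 26 of the 47, and 2689 genes higher in all and 5 higher in the second list, against 4610 and 12 with all lungs, with fewer samples.

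Signs changed for 4 genes that were not called, all at log2 fold changes near 0 or low counts. Tgfbr2 ranged from -0.08 to 0.18 with single lungs left out and was -0.01 without TNF-Tg 1 and WT 1 together. Inhba ranged from -0.73 to 0.34, Smad2 from -0.05 to 0.05 and Smad7 from -0.15 to 0.06 with single lungs left out. Smad2 was -0.0047 with DESeq2 and -0.0001 with DESeq2 size factors. The cause was not tested.

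With the replicate number as a block, 29 pathway genes were called (Smad4, Smurf1 and Id3 were lost), 37 of the second list and 7686 in all. Same-numbered mice are different animals. Deviations from the genotype mean correlated across genes at -0.149, -0.00429 and -0.242 in same-numbered pairs and at -0.0604 to 0.211 in other pairs. Of 3 TNF-Tg lungs, 0 correlated best with the WT lung of their own number. Whether lungs shared a litter or a preparation was not tested. The 94 RPKM means and 36 marker sums moved by less than 1 SD with total counts only. Counts were low for Nog, Inhba, Grem1, Gdf2 and Fstl4, so the size of their differences is uncertain.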

Other observations

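Besides the cell types described with the pathway genes, 12 more marker lists were counted in the same edgeR test. Genes lower in TNF-Tg lungs numbered 3 of 5 for pericyte, 2 of 5 for alveolar type 2, 5 of 5 for airway epithelium, 3 of 5 for mesothelium, 3 of 5 for neutrophil, 2 of 4 for fat cell, 1 of 2 for squamous epithelium, 2 of 4 for skeletal muscle and 5 of 5 for cardiac muscle lists, with none higher. The squamous epithelium and skeletal muscle sums were high in WT 1, and without that lung the ratio of TNF-Tg to WT sums went from 0.000788 to 0.419 and from 0.0407 to 0.708. B and plasma cell and T cell lists each had 4 of 5 higher, and the platelet list had 1 higher and 4 lower of 5. Among their genes, Lep and Krt13 were at 0 in 1 lung each, Tnnc2 in 2 and Sprr3 in 4. Summed levels of the pericyte list were 369 to 466 CPM in TNF-Tg and 506 to 637 in WT lungs, those of the airway epithelium list 5118 to 6770 and 14791 to 24280, those of the B and plasma cell list 11162 to 28722 and 355 to 2088, and those of the T cell list 322 to 465 and 34.4 to 62.2 CPM. The T cell sum was carried mostly by Cd4, which was 28.6-fold higher in TNF-Tg lungs, while Cd3d, Cd3g and Cd8a were 1.82-fold, 2.18-fold and 1.81-fold higher and Cd3e, at 1.18-fold, did not pass the threshold.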
